A study of Mus musculus with 8 samples.

Results

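The 51 genes described here build the mitotic spindle, hold chromosomes on it and cut the cell in 2 at the end of division. They were chosen as a named list of mitotic cyclins and kinases, spindle checkpoint proteins, kinetochore and centromere proteins, spindle motors, cytokinesis proteins and chromosome structure proteins. This list and the other gene lists below were chosen with earlier results of these data known. Their counts beside the shares over all genes are therefore a description and not independent evidence. All 51 symbols had a row among the 24346 genes of the deposited table. RNA-seq was performed on 8 samples of cultured mouse iOLs (immature oligodendrocytes), 4 Med23+/+ and 4 Med23-/-. Oligodendrocyte precursor cells (OPCs) were taken from P7 brains by immunopanning on an antibody against CD140a, the PDGF receptor alpha, after plates that remove endothelial cells and microglia. Both genotypes were first grown with the mitogens PDGF-AA and NT-3, then switched for 1 day to 15 nM T3, the active thyroid hormone, with 10 ng/mL CNTF (ciliary neurotrophic factor). The Med23-/- cells carried floxed Med23 alleles (Med23 fl/fl) and Olig1-cre, in which Cre is expressed from the Olig1 locus of the oligodendrocyte lineage. Med23 encodes a subunit of Mediator, the complex that links transcription factors to RNA polymerase II. The Med23+/+ cells came from control mice, which the study gives as Med23 fl/fl littermates and for which it names no Cre, so the name Med23+/+ stands for floxed alleles that were not cut. Whether the replicates came from separate animals or separate cultures is not given in the sources used here, so the p-values measure the spread between these samples, which may be technical.

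Most of these genes are transcribed in a wave at the end of the cell cycle and are silent or low in cells that have left it. Their promoters commonly hold a CHR (cell cycle genes homology region), bound through the MuvB core by the DREAM repressor in resting cells and by B-Myb and FoxM1 in dividing ones, and CCAAT boxes bound by NF-Y. OPCs divide in response to PDGF and stop dividing when they differentiate into oligodendrocytes.

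Values are FPKM, which counts sequenced fragments per length of transcript and per size of library, so levels of different genes can be set beside each other. How the deposited values were scaled between libraries is not stated. The median ratio of each library to the average library ran from 0.977 to 1.02. Med23 itself stood at 12.7, 12.2, 12.6 and 12.6 FPKM in the Med23+/+ libraries and at 8.4, 7.93, 8.49 and 8.21 FPKM in the Med23-/- libraries, a difference of -0.55 ± 0.07 (SE) on the log2 scale (adjusted p = 0.000353, limma). The 2 genotypes did not overlap for Med23, and its transcript remained at 0.658 of the Med23+/+ mean. Read counts were not used here and the depth of the libraries is unknown, although the worth of 1 read, estimated from the lowest values, ran only from 0.732 to 1.02 relative to Med23+/+ replicate 1. Of the markers of other cells, the 7 microglia markers summed to at most 1.89 FPKM and the 8 endothelial and mural markers to at most 3.70 FPKM in any library. In every library the 8 OPC markers summed to at least 1452 FPKM and the 9 oligodendrocyte markers to at least 154 FPKM. Of those 9, only 7 averaged 1 FPKM or more and were tested. The 8 OPC markers split, with Pdgfra, Cspg4 and C1ql1 higher in Med23-/- iOLs and Vcan, Sox6 and Gpr17 lower. Of the 9 oligodendrocyte markers, all 7 that were tested were lower, the myelin gene Mbp among them (13.4 ± 2.88 against 64.4 ± 10.2 FPKM, mean ± SD, n = 4 per genotype).

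Genes of mitosis were higher in Med23-/- iOLs than in Med23+/+ iOLs in every role group of the list. Of the 51, 47 were higher at an adjusted p under 0.05 and 0 were lower, where 15.9% of the 12328 genes tested were higher and 14.1% were lower. The test was limma on log2(FPKM + 1) over all genes averaging 1 FPKM or more, with Benjamini-Hochberg adjustment over all of them. Every one of the 51 passed that filter in both genotypes, with Med23+/+ means from 4.37 FPKM (Kif20b) to 56.2 FPKM (Bub3) and a median of 12.8 FPKM. All 51 differences were positive, from 0.20 to 1.52 on the log2(FPKM + 1) scale, which understates the change of low genes. Their median was 0.90, while the median over all genes tested was -0.01 and the 95th percentile 0.86. The libraries of the 2 genotypes did not overlap, with Med23-/- above, for 40 of the 51, compared with 16.3% of all genes tested. With a fold change above 2 on the log2(FPKM + 1) scale as a further limit, 15 of the 51 were called. Of all genes tested, 2.98% were called higher and 1.75% lower with both limits. By the ratio of mean FPKM alone, 20 of the 51 lay above a fold of 2. The 15 were Ccna2, Cenpa, Cenpf, Ndc80, Spc25, Aurkb, Kif11, Kif4, Psrc1, Gtse1, Kif23, Racgap1, Ect2, Top2a and Mki67. In RNA from whole cultures, a difference in the number of dividing cells and a difference in mitotic RNA per cell cannot be told apart. By EdU counts, the study reported slightly reduced proliferation of Med23-/- OPCs in culture before differentiation. It found a similar share of proliferating OPCs in the corpus callosum of both genotypes. Neither count was made in the iOLs used here. After 1 day of T3, the study counted fewer cells with the oligodendrocyte protein CNP among Med23-/- than control cells. That is not a count of dividing cells.

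**Figure D1:**
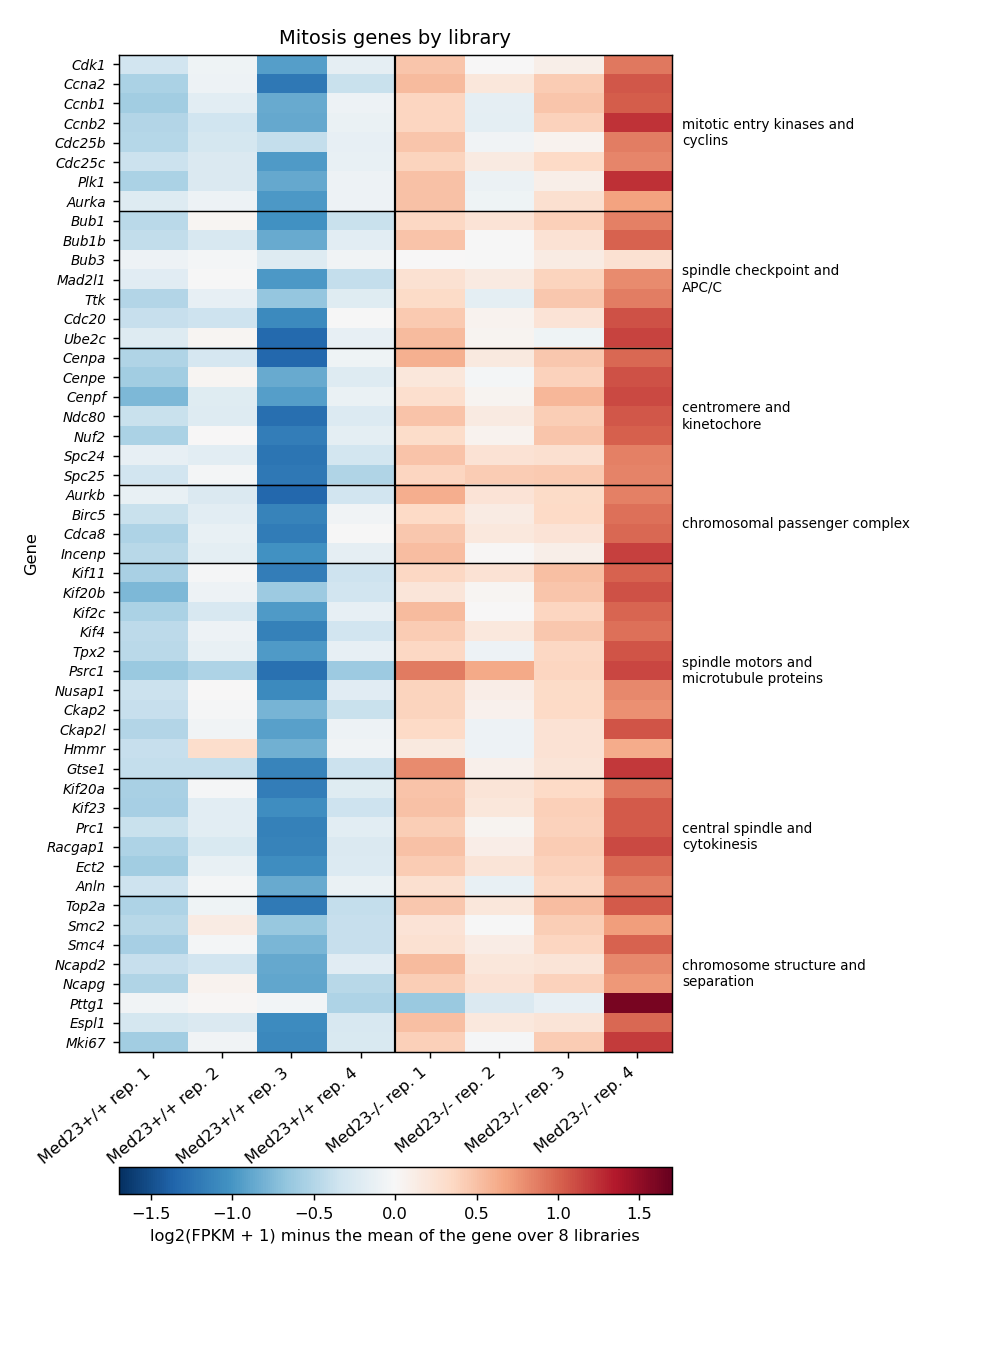
Heat map of the 51 mitosis genes (rows, by role) in the 8 libraries (columns), coloured by log2(FPKM + 1) minus the mean of the gene over all libraries. Med23-/- replicate 4 is the reddest column and was highest for 51 of 51 genes, and Med23+/+ replicate 3 is the bluest and was lowest for 48 of 51.

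Within each genotype the genes shared their order of libraries to a large extent, and 1 library of each genotype stood apart. The 51 genes summed to 814, 1019, 541 and 951 FPKM in the Med23+/+ replicates 1 to 4 and to 1495, 1182, 1410 and 2226 FPKM in the Med23-/- replicates. The sums did not overlap, and their means were 831 ± 212 FPKM for Med23+/+ and 1578 ± 452 FPKM for Med23-/- iOLs (± SD, n = 4 each). Med23-/- replicate 4 was the highest of the 8 libraries for 51 of the 51 genes, compared with 20.6% of all genes tested. Med23+/+ replicate 3 was the lowest for 48, compared with 14.5% of all genes tested, the exceptions being Cdc25b, Kif20b and Pttg1. The median gene lay at 0.627 of its genotype mean in Med23+/+ replicate 3 and at 1.41 of it in Med23-/- replicate 4. Med23-/- replicate 2 was the lowest Med23-/- library for 47 genes, and Med23+/+ replicate 2 was the highest Med23+/+ library for 31. Med23-/- replicate 2 and Med23+/+ replicate 2 are a pair picked after seeing these sums. Between them, 44 of the 51 genes were higher in Med23-/- replicate 2, by a median ratio of 1.18. This sets 1 library against 1, and the genes share their order of libraries, so it is a description only. The share over all genes tested was not counted for this pair.

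Without the 2 extreme libraries the direction held for 50 of the 51 genes, Pttg1 being the exception, while few differences stayed above a fold of 2. With both Med23+/+ replicate 3 and Med23-/- replicate 4 left out, an alternative chosen after seeing the data, 33 of the 51 genes were higher at an adjusted p under 0.05 (11.5% of all genes tested in that fit) and the median difference was 0.53. The median ratio of mean FPKM, 1.96 over all libraries, was then 1.5. The count past both limits dropped from 15 to 1 without Med23+/+ replicate 3, to 1 without Med23-/- replicate 4 and to 1 without both, and in each case Psrc1 was the gene that stayed. It rose to 27 without Med23+/+ replicate 2, to 25 without Med23+/+ replicate 4 and to 30 without Med23-/- replicate 2. The share of all genes tested past both limits was not counted in these fits. Leaving out each of the 8 libraries in turn kept 32 to 47 genes higher by adjusted p, compared with 12.6% to 15.1% of all genes tested. In all 8 of those fits 29 genes, listed by role in the accounts that follow, were under the limit. How many of all genes tested were so in all 8 was not counted.

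**Figure D2:**
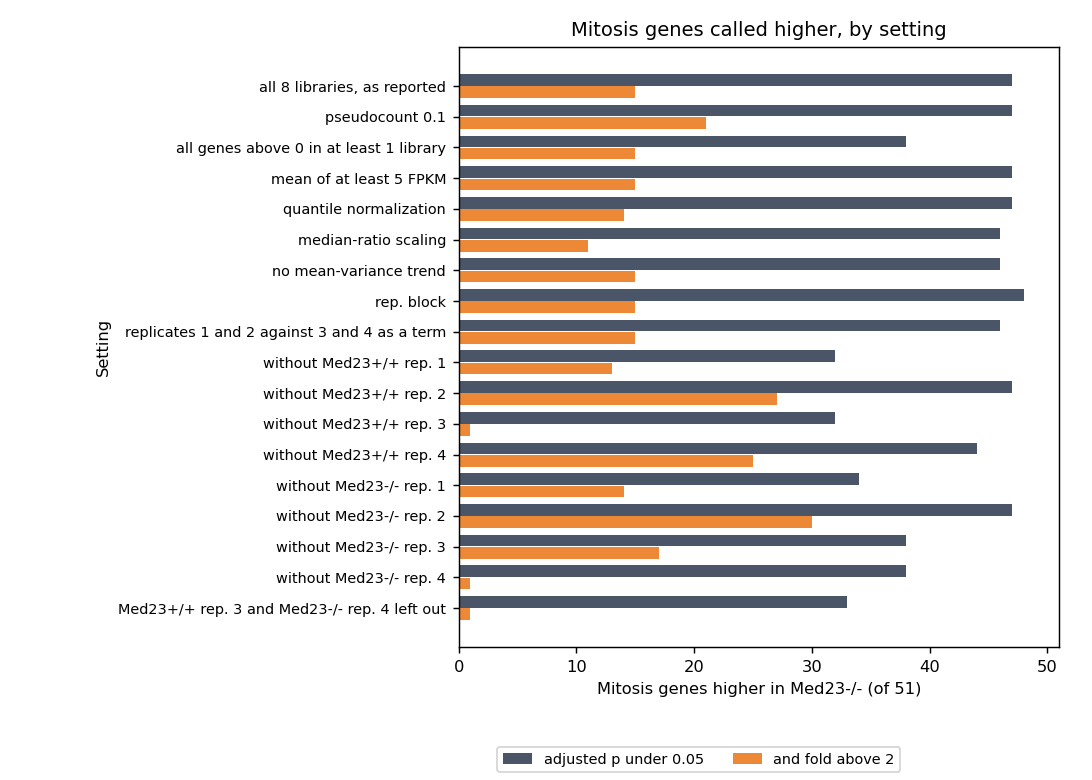
Number of the 51 mitosis genes higher in Med23-/- iOLs (x axis, from 0) under each setting (y axis), by adjusted p under 0.05 (dark) and with a fold above 2 as well (orange). The dark bars stay between 32 and 48, while the orange bars run from 1, without Med23+/+ replicate 3 or Med23-/- replicate 4, to 30 without Med23-/- replicate 2.

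The promoters of the genes past both limits are shown first, since the elements that such promoters are known for can be read from them. RefSeq promoters on GRCm38.p6 (250 bases before the start to 50 after it) matched 43 of the 51 genes with 48 promoters. Ccna2, Aurkb, Cdc25c, Tpx2, Incenp, Kif20a, Spc24 and Smc4 had none in the table. For the 13 others past both limits, the sequence from 120 bases before the start to 30 bases after it is printed 5′ to 3′ on the strand of the gene, with a CHR (TTTGAA or TTCGAA, either strand) and a CCAAT box (either strand, ATTGG on the other) in capitals where it lies whole within the window.
Psrc1, chr3:108383684-108383833, plus strand: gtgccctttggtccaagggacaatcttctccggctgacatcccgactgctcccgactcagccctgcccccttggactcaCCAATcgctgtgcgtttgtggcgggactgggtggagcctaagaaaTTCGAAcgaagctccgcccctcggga
Top2a, chr11:99024160-99024309, minus strand: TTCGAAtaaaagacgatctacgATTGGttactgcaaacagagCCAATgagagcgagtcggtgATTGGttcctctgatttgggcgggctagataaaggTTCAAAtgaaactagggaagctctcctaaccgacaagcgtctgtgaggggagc
Mki67, chr7:135716350-135716499, minus strand: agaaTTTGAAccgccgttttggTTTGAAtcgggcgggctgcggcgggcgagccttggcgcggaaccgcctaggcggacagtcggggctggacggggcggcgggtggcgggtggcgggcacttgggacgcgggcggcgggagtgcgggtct
Cenpa, chr5:30666766-30666915, plus strand: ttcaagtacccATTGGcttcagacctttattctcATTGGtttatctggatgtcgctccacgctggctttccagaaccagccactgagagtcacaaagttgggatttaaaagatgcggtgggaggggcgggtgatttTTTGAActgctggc
Cenpf, chr1:189688057-189688206, minus strand: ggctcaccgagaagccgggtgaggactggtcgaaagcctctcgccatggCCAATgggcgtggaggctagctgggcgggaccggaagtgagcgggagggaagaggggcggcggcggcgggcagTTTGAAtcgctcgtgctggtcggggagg
Ndc80, chr17:71526828-71526977, minus strand: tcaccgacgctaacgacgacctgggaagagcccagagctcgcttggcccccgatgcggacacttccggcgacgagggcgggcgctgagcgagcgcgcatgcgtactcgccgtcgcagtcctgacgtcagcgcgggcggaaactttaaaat
Spc25, chr2:69206184-69206333, minus strand: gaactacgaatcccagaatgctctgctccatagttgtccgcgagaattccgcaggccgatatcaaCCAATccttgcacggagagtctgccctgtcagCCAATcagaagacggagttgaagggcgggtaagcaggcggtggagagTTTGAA
Kif11, chr19:37376262-37376411, plus strand: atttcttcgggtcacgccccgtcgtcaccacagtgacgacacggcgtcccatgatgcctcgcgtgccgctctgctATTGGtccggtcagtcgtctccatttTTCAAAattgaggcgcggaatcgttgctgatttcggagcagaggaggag
Kif4, chrX:100625945-100626094, plus strand: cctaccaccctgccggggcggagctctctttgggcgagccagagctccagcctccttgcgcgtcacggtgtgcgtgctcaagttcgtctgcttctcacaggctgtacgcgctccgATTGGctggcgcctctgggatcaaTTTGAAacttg
Gtse1, chr15:85859587-85859736, plus strand: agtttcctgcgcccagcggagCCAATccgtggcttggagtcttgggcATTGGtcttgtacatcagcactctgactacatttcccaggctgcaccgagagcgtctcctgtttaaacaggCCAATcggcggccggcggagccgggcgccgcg
Kif23, chr9:61946770-61946919, minus strand: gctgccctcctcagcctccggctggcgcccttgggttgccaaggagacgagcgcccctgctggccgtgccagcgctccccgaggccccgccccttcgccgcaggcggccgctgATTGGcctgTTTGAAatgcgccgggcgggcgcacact
Racgap1, chr15:99651627-99651776, minus strand: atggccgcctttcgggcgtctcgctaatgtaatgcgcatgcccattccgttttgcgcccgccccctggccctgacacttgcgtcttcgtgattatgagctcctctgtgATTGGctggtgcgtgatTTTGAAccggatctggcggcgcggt
Ect2, chr3:27153849-27153998, minus strand: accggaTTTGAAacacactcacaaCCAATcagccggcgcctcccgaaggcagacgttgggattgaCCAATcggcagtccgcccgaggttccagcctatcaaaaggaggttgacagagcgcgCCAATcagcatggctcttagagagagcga

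Counted over the full 300 bases, 39 of the 48 promoters (81.2%) held a CHR, compared with 19.2% of all 32851 promoters in the table and 12.8% of the promoters of genes tested that are not in the list. A CCAAT box was in 81.2% of the 48 promoters, compared with 37.4% of all promoters, and both elements were in 72.9% compared with 7.52%. The GC box (GGGCGG, either strand), the letters bound by Sp1, was in 81.2% compared with 35.7% of all promoters and 63.5% of those of tested genes outside the list. The study reported enrichment of the Sp1 motif in promoters of genes lower in Med23-/- iOLs, which is a different set. A role of Sp1 in the genes listed here was not tested. Of the 52 CHR matches, 37 (71.2%) began within 50 bases of the start, compared with 25.2% of the matches in all promoters. Of the 84 CCAAT matches, 65 (77.4%) began in the 150 bases before the start, compared with 60.3%. The other matches lay elsewhere in the window, such as both CHR matches of Mki67, upstream of the start. In 7 of the 13 printed promoters a CHR can be read just after the start, and Ndc80 had one that began at base 30, at the edge of the printed window. Only in Cdca8 did a CHR and a CCAAT box share letters. Neither TTTGAA nor TTCGAA was in the window of Ccnb1, Mad2l1, Pttg1, Cenpe, Nuf2, Birc5, Nusap1 and Gtse1. Other forms of the CHR were not searched. A match is a description of letters. The median difference between genotypes was 0.91 for the 35 genes with a searched form of the CHR and 0.84 for the 8 without.

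Cyclins and kinases of mitotic entry were all higher, 8 of 8, with a median difference of 0.85. Ccna2 (cyclin A2, which partners Cdk2 in S phase and Cdk1 at mitotic entry) stood at 29.7, 41.2, 18.3 and 33.4 FPKM in the Med23+/+ libraries and at 63.9, 49.8, 59.3 and 91.5 FPKM in the Med23-/- libraries. Every Med23-/- value lay above every Med23+/+ value, and the difference was 1.10 ± 0.24 (SE; adjusted p = 0.00774). Exons of Ccna2 overlap those of Exosc9 on the other strand, and whether the counting used strand is not stated. The same limit holds for Cdc25b (Spef1), Cdc20 (Elovl1), Ube2c (Tnnc2), Cdca8 (9930104L06Rik), Kif4 (Pdzd11), Nusap1 (Oip5), Kif20a (Cdc23), Prc1 (Rccd1) and Ncapg (Lcorl). The smallest difference of the group was that of Cdc25b, a phosphatase that activates Cdk1, with 8.61, 9.91, 9.14 and 11.2 FPKM against 17.6, 11.9, 13 and 23.4 FPKM (0.67 ± 0.19, adjusted p = 0.0233). Its genotypes did not overlap either, although Med23-/- replicate 2 came within 1 FPKM of Med23+/+ replicate 4. Between these lay Cdk1, the kinase that drives mitosis, at 0.74, its partners Ccnb1 (cyclin B1) at 0.86 and Ccnb2 at 0.91, the phosphatase Cdc25c at 0.85, the Polo-like kinase Plk1 at 0.87 and the centrosomal kinase Aurka at 0.69. Of the 8, only Ccna2 and Cdc25c stayed under the limit in all 8 fits without 1 library, while Plk1 and Aurka did in 3 of 8.

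**Figure D3:**
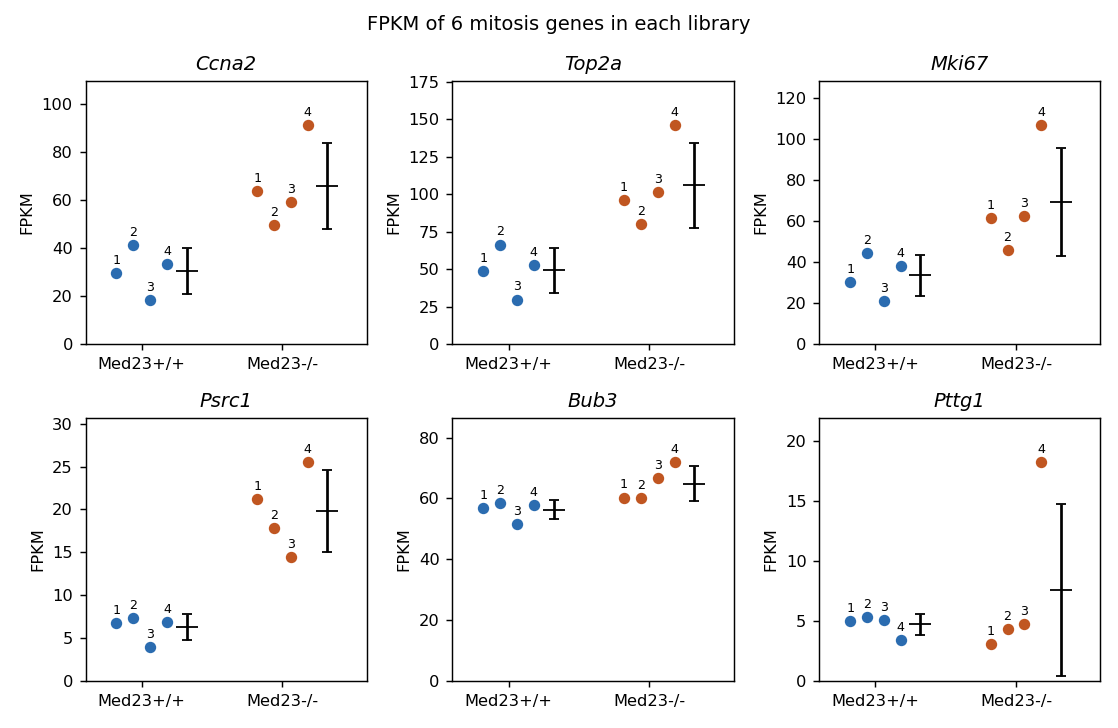
FPKM (y axis, from 0) of Ccna2, Top2a, Mki67, Psrc1, Bub3 and Pttg1 in each library, numbered by replicate, with the mean and SD of each genotype in black. The Psrc1 libraries reach at most 7.38 FPKM in Med23+/+ and start at 14.5 FPKM in Med23-/- iOLs, and the Pttg1 mean of Med23-/- rests on replicate 4 at 18.3 FPKM.

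Spindle checkpoint and APC/C genes were higher for 5 of 7, with a median of 0.82. Bub1, a kinase that recruits checkpoint proteins to unattached kinetochores, stood at 6.41, 9.42, 4.01 and 6.86 FPKM in Med23+/+ and at 12, 11, 12.5 and 17.5 FPKM in Med23-/- iOLs. Its libraries did not overlap, and both the largest difference (0.92 ± 0.21) and the lowest adjusted p (0.00967) of the group were its own. Bub1b (BubR1, a subunit of the checkpoint complex) was higher by 0.86, the checkpoint kinase Ttk (Mps1) by 0.75, Mad2l1 (Mad2, which binds Cdc20) by 0.79, and Cdc20, the APC/C activator that the checkpoint holds back, by 0.91. Bub1, Bub1b and Mad2l1 were under the limit in all 8 fits without 1 library. Bub3, the scaffold that brings Bub1 and BubR1 to kinetochores, was the most abundant gene of the list in Med23+/+ iOLs and differed least, at 56.9, 58.6, 51.7 and 57.8 FPKM against 60.3, 60.2, 66.7 and 72.1 FPKM. Its genotypes did not overlap, yet the difference of 0.20 ± 0.08 did not pass the limit (adjusted p = 0.0987). Ube2c, the ubiquitin-conjugating enzyme of the APC/C, had the larger difference of 0.82 ± 0.33 with an adjusted p of 0.0876, from 53.3, 63.7, 24.4 and 56.4 FPKM against 90.7, 64.1, 59.1 and 139 FPKM. Here the genotypes overlapped, since Med23-/- replicate 3 fell below Med23+/+ replicate 2.

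Centromere and kinetochore genes were higher for 7 of 7, with a median of 1.01, and 4 of them were past both limits. Cenpa, the histone H3 variant that marks centromeres, had the largest difference of the group, from 22.3, 26.4, 12.1 and 30.6 FPKM in Med23+/+ to 49.7, 36.2, 44.7 and 64.1 FPKM in Med23-/- iOLs (1.10 ± 0.26, adjusted p = 0.0111). Ndc80 and Spc25 belong to the complex that grips microtubule ends. Ndc80 was at 7.28, 8.31, 3.44 and 8.15 FPKM against 14.1, 11.0, 13.4 and 21.4 FPKM (1.06 ± 0.26, adjusted p = 0.0124). Spc25 was at 16.6, 20.5, 8.45 and 14.3 FPKM against 27.3, 28.5, 28.7 and 38.3 FPKM, and it had the lowest adjusted p of the group (1.04 ± 0.22, adjusted p = 0.00702). None of these 3 genes overlapped between genotypes, and the other subunits of the complex, Nuf2 and Spc24, both differed by 0.93. Cenpf, a large protein of the outer kinetochore, was at 8.89, 13.4, 7.72 and 14.4 FPKM against 19.4, 16.3, 23.8 and 35.5 FPKM (1.01 ± 0.25, adjusted p = 0.0134), also without overlap. Cenpe, the kinesin that carries chromosomes to the spindle equator, had the smallest difference, at 7.24, 11.7, 5.84 and 9.63 FPKM against 13.2, 11.1, 15.3 and 25.3 FPKM (0.82 ± 0.25, adjusted p = 0.0350). Its libraries overlapped, and it was under the limit in only 2 of the 8 fits without 1 library, where Cenpa, Cenpf, Ndc80, Spc24 and Spc25 were in all 8.

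The chromosomal passenger complex, which corrects faulty attachments and later moves to the midzone, was higher for 4 of 4 subunits, with a median of 0.91. Aurkb, its kinase, was at 17.6, 16.2, 7.06 and 15.3 FPKM in Med23+/+ and at 30.2, 22.8, 24.5 and 36.0 FPKM in Med23-/- iOLs (1.02 ± 0.25, adjusted p = 0.0141). Birc5 (survivin) had the smallest difference, from 23.0, 26.4, 13.2 and 28.8 FPKM to 38.4, 33.2, 38.4 and 58.6 FPKM (0.88 ± 0.24, adjusted p = 0.0210). Neither gene overlapped between genotypes, and the same was true of Cdca8 (borealin, 0.92) and Incenp, the scaffold (0.90). Aurkb and Birc5 were under the limit in all 8 fits without 1 library, and Cdca8 and Incenp in 5.

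Spindle motors and microtubule proteins were higher for 10 of 11, with a median of 0.90. Psrc1, a microtubule-binding protein also known as DDA3, had the largest difference and the lowest adjusted p of all 51 genes. It stood at 6.76, 7.38, 4.0 and 6.89 FPKM in the Med23+/+ libraries and at 21.3, 17.9, 14.5 and 25.6 FPKM in the Med23-/- libraries, a difference of 1.52 ± 0.20 (adjusted p = 0.000506) and 3.16 times the mean. The lowest Med23-/- value was nearly double the highest Med23+/+ value, and without 1 library at a time the difference stayed between 1.35 and 1.65. Set against the median gene of the list in the same library, Psrc1 lay at -0.84, -1.02, -0.86 and -1.02 on the log2 scale in Med23+/+ and at -0.11, 0.00, -0.51 and -0.42 in Med23-/- iOLs, again without overlap. This is a description, since Psrc1 was singled out for its difference, and by the same measure Ccna2, Ndc80, Kif23, Racgap1, Ect2 and Top2a also lay above without overlap, Bub3 and Hmmr below, and the other 42 genes overlapped. Gtse1, a microtubule protein that also restrains p53 in G2, was at 5.78, 5.77, 3.13 and 5.98 FPKM against 14.6, 8.57, 9.42 and 19.6 FPKM (1.15 ± 0.26, adjusted p = 0.00839). Kif11 (Eg5, the motor that pushes spindle poles apart) was at 19.2, 28.3, 12.1 and 22.3 FPKM against 36.8, 34.2, 41.2 and 58.5 FPKM (1.05 ± 0.24, adjusted p = 0.00920). Kif4, a chromokinesin, was at 8.72, 11.4, 4.93 and 9.53 FPKM against 16.9, 14.0, 17.1 and 24.4 FPKM (1.01 ± 0.23, adjusted p = 0.00886). None of the 3 overlapped between genotypes. Kif2c, which takes microtubules apart at kinetochores, differed by 0.95, Kif20b, a kinesin of cytokinesis, by 0.90, Tpx2, the activator of Aurora A, by 0.84, and Nusap1, which bundles spindle microtubules, by 0.82. Ckap2 and its relative Ckap2l, both spindle-associated proteins, differed by 0.79 and 0.78. Kif11, Kif20b, Kif2c, Kif4, Psrc1, Ckap2 and Gtse1 were under the limit in all 8 fits without 1 library. Hmmr, which anchors spindle poles, was the exception, at 9.58, 16.1, 6.87 and 12.4 FPKM against 14.6, 12.1, 15.5 and 20.5 FPKM (0.48 ± 0.23, adjusted p = 0.141). Its values overlapped, with Med23+/+ replicate 2 above 3 of the 4 Med23-/- libraries.

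**Figure D4:**
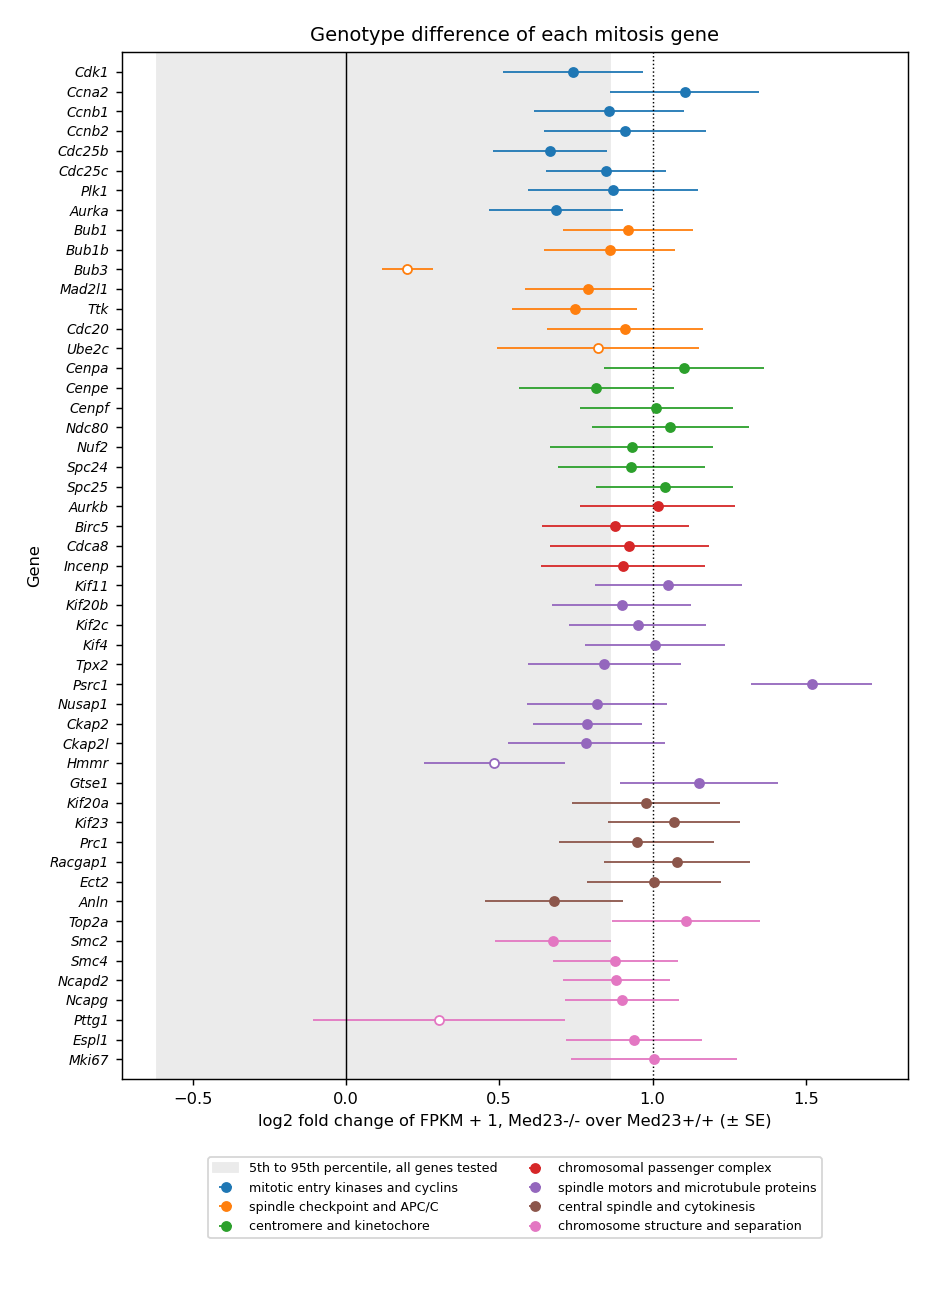
Log2 fold change of FPKM + 1, Med23-/- over Med23+/+ (x axis), with its SE for each of the 51 genes, coloured by role, with open circles for the 4 genes not called (Bub3, Ube2c, Hmmr and Pttg1). The grey band runs from the 5th to the 95th percentile of all genes tested (-0.61 to 0.86) and the dotted line marks a fold of 2, which Psrc1 at 1.52 passed by the most.

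Genes of the central spindle and of cytokinesis were higher for 6 of 6, with a median of 0.99. Racgap1 and Kif23 form centralspindlin, which gathers at the midzone and recruits Ect2, the exchange factor that switches on RhoA for the contractile ring. Racgap1 was at 24.1, 29.2, 15.5 and 29.4 FPKM in Med23+/+ and at 49.8, 37.9, 47.8 and 77.3 FPKM in Med23-/- iOLs (1.08 ± 0.24, adjusted p = 0.00806). Kif23 was at 4.64, 6.38, 3.02 and 5.51 FPKM against 10.7, 8.53, 9.99 and 16.2 FPKM (1.07 ± 0.22, adjusted p = 0.00524). Ect2 was at 9.90, 14.1, 6.88 and 13 FPKM against 21.2, 18.1, 20.6 and 31.3 FPKM (1.01 ± 0.22, adjusted p = 0.00749). All 3 partners were separated between genotypes and were under the limit in all 8 fits without 1 library. So were Kif20a, the motor that carries the passenger complex to the midzone (0.98), and Prc1, which bundles midzone microtubules (0.95). Anln (anillin, a scaffold of the contractile ring) had the smallest difference, at 7.29, 9.35, 4.83 and 8.76 FPKM against 11.7, 8.70, 12.4 and 18.3 FPKM (0.68 ± 0.23, adjusted p = 0.0465). Med23-/- replicate 2 lay below 2 Med23+/+ libraries for Anln, which was under the limit in 2 of the 8 fits. Its call was also lost with all genes above 0 tested, with quantile normalization, with median-ratio scaling, without the variance trend and with replicates 1 and 2 against 3 and 4 as a term, which leaves 5 of the 6 genes called.

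Genes of chromosome structure and separation were higher for 7 of 8, with a median of 0.89. Top2a, the topoisomerase that untangles sister chromatids, stood at 48.6, 66.5, 29.8 and 52.6 FPKM in Med23+/+ and at 96.5, 80.1, 102 and 146 FPKM in Med23-/- iOLs (1.11 ± 0.24, adjusted p = 0.00744). Mki67, the proliferation marker Ki-67 that coats mitotic chromosomes, stood at 30.2, 44.2, 21.1 and 38.3 FPKM against 61.5, 45.6, 62.3 and 107 FPKM (1.01 ± 0.27, adjusted p = 0.0201). Neither overlapped, although Med23-/- replicate 2 came close to Med23+/+ replicate 2 for Mki67, which missed the limit (adjusted p = 0.050) without Med23+/+ replicate 3. Of the condensin subunits, Ncapd2 had the lowest adjusted p of the group, at 33.3, 34.9, 23.5 and 38.3 FPKM against 64.0, 50.2, 51.1 and 77.7 FPKM (0.88 ± 0.17, adjusted p = 0.00468). It contains the small RNA gene Scarna10, which lies on the same strand. Smc2 and Smc4, the core pair of condensin, differed by 0.68 and 0.88, Ncapg by 0.90, and Espl1 (separase, which cuts cohesin) by 0.94. Top2a, Smc4, Ncapd2, Ncapg and Espl1 were under the limit in all 8 fits without 1 library. Pttg1 (securin, the inhibitor of separase) did not follow the rest, at 5.0, 5.37, 5.09 and 3.38 FPKM against 3.05, 4.30, 4.72 and 18.3 FPKM (0.30 ± 0.41, adjusted p = 0.620). Its Med23-/- values lay within or below the Med23+/+ range in 3 libraries and far above it in replicate 4, and without replicate 4 the difference was -0.185, which passed no limit (adjusted p = 0.44).

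Other genes of the cell cycle were higher too. A list of 83 other genes of mitosis held further centromere, kinetochore, cohesin, condensin and kinesin genes. Of these, 62 were higher (74.7%, against 15.9% of all genes tested) and 0 lower (against 14.1%). Their median was 0.75, and 13 were past both limits, compared with 2.98% of all genes tested. The largest was Kif18b, a kinesin that trims spindle microtubules (1.14), followed by the kinase Pbk (1.11), Fam64a (1.10), the chromokinesin Kif22 (1.09) and cyclin F (Ccnf, 1.08). Cenpm, Pmf1, Cdca2, Cep55, Stil, Kifc1, Iqgap3 and Cdca5 lay between 1.00 and 1.04. By adjusted p, the leading genes were the nuclear lamin Lmnb1 (0.79), Cenpk of the inner kinetochore (0.76) and the Cenpa chaperone Hjurp (0.89). Without both extreme libraries 38 of the 83 were higher, compared with 11.5% of all genes tested in that fit. Nde1, named after its values were seen, was then lower. Of 24 genes of S phase, 19 were higher (79.2%, against 15.9% of all genes tested) and 0 lower, with a median of 0.86. Past both limits were Uhrf1, which helps to maintain DNA methylation (1.39), thymidine kinase Tk1 (1.21), Mcm5 of the replicative helicase (1.12), Gins2 of the same machine (1.10) and Rrm2 of ribonucleotide reductase (1.10), and Pola1, the DNA polymerase alpha subunit, had the lowest adjusted p of the list (0.95). The S phase sums ran from 286 to 511 FPKM for Med23+/+ and from 606 to 961 FPKM for Med23-/- iOLs, and Med23-/- replicate 4 was again highest for 23 of the 24.

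Of the regulators of such promoters (subunits of DREAM and MuvB, their E2F partners, B-Myb and FoxM1), 4 of 13 were higher (30.8%, against 15.9% of all genes tested) and 2 lower (15.4% against 14.1%), with a median of 0.11. Foxm1 was higher at 22.7 ± 8.55 against 11.1 ± 3.24 FPKM (0.94, adjusted p = 0.0265), as was Mybl2 (B-Myb) at 6.97 ± 2.02 against 3.39 ± 0.897 FPKM (0.85, adjusted p = 0.0124), and both are themselves periodic in the cell cycle. The pocket protein Rbl1 (p107) differed by 0.71 and Tfdp2 by 0.37, while E2f5 fell by 0.30 and Tfdp1 by 0.23. Lin9, Lin37, Lin52, Lin54 and Rbbp4 of the MuvB core, and E2f4 and Rbl2 (p130) of the repressor, did not pass the test. The subunits of the APC/C and its activator Cdh1 (Fzr1) had a median of 0.05, with 1 of 14 higher (Anapc11, 0.31) and 0 lower, a share of 7.14% that is below that over all genes. Of the 7 kinases and phosphatases that restrain or release Cdk1, 1 was higher and 1 lower (14.3% each), near the shares over all genes. The inhibitory kinase Wee1 was higher at 5.72, 5.70, 2.67 and 4.26 FPKM against 9.76, 8.82, 7.66 and 12.1 FPKM (0.95, adjusted p = 0.00670), and Ppp2r2a, a regulatory subunit of PP2A, fell by 0.48 (adjusted p = 0.00614).

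**Figure D5:**
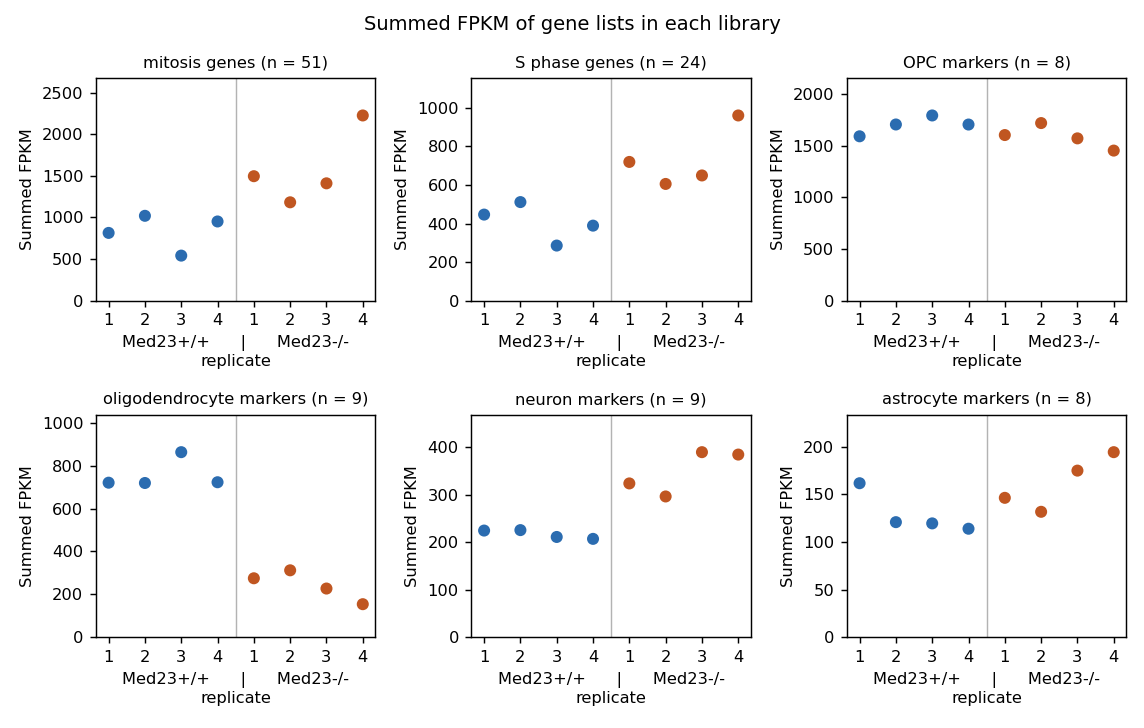
Summed FPKM (y axes, from 0) of the 51 mitosis genes, the 24 S phase genes and 4 lists of cell type markers in each library, with Med23+/+ in blue and Med23-/- in orange. Where the mitosis sum is highest (Med23-/- replicate 4, 2226 FPKM) the oligodendrocyte marker sum is lowest (154 FPKM), and where it is lowest (Med23+/+ replicate 3, 541 FPKM) the oligodendrocyte sum is highest (863 FPKM).

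Oligodendrocyte and neuron markers differed between genotypes beside these genes, while OPC and astrocyte markers went both ways. The part of any of them in the result was not tested. Of the oligodendrocyte markers, 7 of 7 tested were lower in Med23-/- iOLs, compared with 14.1% of all genes tested. The 9 listed summed to 719 to 863 FPKM in Med23+/+ and 154 to 312 FPKM in Med23-/- libraries. Of the 8 OPC markers 3 were higher and 3 lower (37.5% each, against 15.9% and 14.1% of all genes tested). Their sums overlapped (1590 to 1792 against 1452 to 1719 FPKM). Of the 9 neuron markers 8 were higher (88.9%, against 15.9% of all genes tested), with sums of 207 to 226 against 297 to 390 FPKM. Of the 8 astrocyte markers 2 were higher and 2 lower (25.0% each, against 15.9% and 14.1% of all genes tested). The astrocyte sums overlapped, at 114 to 162 against 132 to 194 FPKM. In the plot of summed lists, the library highest for mitosis genes was lowest for oligodendrocyte markers, and the library lowest for mitosis genes was highest for them. For neuron markers, Med23-/- replicates 3 and 4 were both high (390 and 385 FPKM), while only replicate 4 was high for mitosis genes.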

How the data were processed

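RNA-seq was performed on 8 samples, 4 per genotype. The authors sequenced on an Illumina X-10 and used FastQC, Cutadapt, TopHat2 (mm10, default settings) and then cuffdiff with -b and -u, which correct for fragment bias and multiply mapped reads. Tool versions and the annotation are not given in the sources used here. The authors deposited FPKM per library for 24346 gene symbols, and their own comparison columns (fold change, test statistic, p and q) were not used. The depth is unknown.

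Expression was set between genotypes on log2(FPKM + 1) with limma (version 3.58.1, R 4.3.3, lmFit, then eBayes allowing a trend of variance with mean) for the 12328 genes averaging 1 FPKM or more, with Benjamini-Hochberg adjustment. A gene was called at an adjusted p under 0.05, and past both limits with a fold of FPKM + 1 above 2 as well. The study also took a fold above 2, but of the expression level from cuffdiff, so these counts do not use its own criterion. A two-sided exact permutation test over libraries cannot go below p = 0.0286 with 4 against 4, the value of every gene without overlap. The fits were tested on simulated data in which each gene varied independently. A shift of 1 library shared by many genes, as seen here, was not simulated, so that test does not cover it. As alternatives, the pseudocount was set to 0.1, the filter was dropped (genes above 0 in any library) or raised to 5 FPKM, libraries were scaled by quantiles or by median ratios, the variance trend was left out, the replicate number was added as a block, replicates 1 and 2 against 3 and 4 as a term, each library was left out and, for promoters, the 250 bases before the start were used alone. Positions are on mm10 (GRCm38). The members and all gene lists were chosen with earlier results of these data known. Named are all members, with values per library for those past both limits and, per role, for the lowest adjusted p and the largest and smallest difference, and, of other lists, genes past both limits and the 3 called genes of lowest adjusted p in each direction. Tables and figures were made with Python 3.11.15, pandas 2.3.3, numpy 2.4.6 and matplotlib 3.10.9.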

Additional observations from a re-analysis of the deposited data

Results flagged for a closer look

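Of 104 groups of 4 libraries (the 51 mitosis genes and their sum in each genotype), 4 held a library whose gap to its nearest neighbour passed Dixon's limit as a share of the range of the group, where chance flags about 1 group in 20. The Med23-/- replicate 4 library was the far one for Spc25, at 38.3 FPKM against 27.3 to 28.7 FPKM in the other 3 libraries, and for Pttg1, at 18.3 FPKM against 3.05 to 4.72 FPKM. The Med23+/+ replicate 3 library was the far one for Gtse1, at 3.13 FPKM against 5.77 to 5.98 FPKM, and for Espl1, at 3.04 FPKM against 5.84 to 6.11 FPKM. Without its library Pttg1 changed direction, to -0.185, while Spc25, Gtse1 and Espl1 stayed higher with differences of at least 0.81, 0.94 and 0.74 over all fits without 1 library.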

How the results depend on the processing

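Under the alternatives with all 8 libraries, 38 to 48 of the 51 mitosis genes were higher and 0 lower, 11 (median-ratio scaling) to 21 (pseudocount 0.1) were past both limits, and all 51 differences stayed positive. With all genes above 0 tested, 9 calls were lost (Cdk1, Ccnb2, Plk1, Aurka, Cenpe, Incenp, Tpx2, Ckap2l and Anln). The Anln call alone was also lost when the variance trend was left out, when replicates 1 and 2 against 3 and 4 were a term, and under quantile or median-ratio scaling. The replicate numbers did not pair the samples: the deviations of same-numbered libraries from their genotype means correlated at 0.13, -0.10, -0.03 and 0.16 across genes, and 1 of the 4 Med23+/+ libraries correlated best with its own number. With the replicate block 48 mitosis genes were higher, 1 more than without it (Ube2c), and 15 were past both limits. Leaving out each library, 32 to 47 were higher (12.6% to 15.1% of all genes tested), 1 to 30 past both limits, and the median difference was 0.71 to 1.04. The share of all genes tested past both limits was not counted under these alternatives. With both Med23+/+ replicate 3 and Med23-/- replicate 4 left out, chosen after seeing the data, 33 were higher, 1 was past both limits, and Pttg1 was at -0.15 (-0.185 to 0.57 without 1 library). In that fit 38 of the 83 other mitosis genes were higher and 1 lower, 0 APC/C genes were higher, and 11.5% of all genes tested were higher.

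Counts of the small lists moved with most settings. Regulators of DREAM, MuvB and FoxM1 called lower were 1 with the filter at 5 FPKM, with quantile normalization, without the variance trend, the replicate block and both libraries left out, and 0 to 2 without 1 library. Regulators higher were 2 with all genes above 0 and with both libraries left out, and 2 to 4 without 1 library. APC/C genes higher were 3 with quantile normalization and 0 to 1 without 1 library, and lower were 1 (Cdc27) with median-ratio scaling, the replicate block or replicates 1 and 2 against 3 and 4 as a term, and 0 to 1 without 1 library. Other mitosis genes lower were 0 to 1 without 1 library (Nde1 without Med23-/- replicate 4). In the 250 bases before the start alone, a CHR was in 43.8% of the 48 promoters and both elements in 41.7%, since the CHR matches after the start are then left out; the cause of the other changes was not tested. FPKM without counts leave the precision of single values unknown.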
